A study of Homo sapiens with 9 samples.

Results

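FGR and its relatives are SRC family kinases, cytoplasmic tyrosine kinases that pass signals from integrins, Fc receptors and growth factor receptors at the inner face of the plasma membrane. Each is held inactive when CSK, a kinase outside the family, phosphorylates a tyrosine in its tail, and phosphatases such as CD45 remove that phosphate. FGR and LYN are typical of myeloid cells, BLK of B cells and LCK of T cells, while SRC, FYN and YES1 are found in most tissues. The set described here was FGR, LYN, FYN, SRC, YES1, LCK and CSK, taken by gene symbol from the authors' deposited table. The 7 genes were chosen with their changes in this table known, FGR for its large decrease, so the values below describe them and test nothing. Of the 7, 6 had values among the 13410 genes of the table, and LCK was not analysed here. BLK, of the same family and with values in the table, is given beside them.

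The study sequenced RNA from MV4-11 cells, an established human acute monocytic leukaemia line driven by an MLL fusion and an internal tandem duplication of FLT3. The groups were alisertib at 1000 nM, JB170 at 100 nM and the vehicle DMSO, each kept on the cells for 18 h, with 3 libraries per group and 9 in all. Alisertib inhibits the kinase activity of Aurora A, and JB170 is the Aurora A degrader behind the series' title. The question for these genes was whether FGR differed from its relatives, and whether it did so with each compound. The table compares alisertib (read from a header naming A1000), JB170 and columns headed A100 and MK with DMSO. A100 and MK name no group in the labels and are given under those names. All 4 comparisons share DMSO libraries. No library's own values were analysed here, so no value per sample, no spread between libraries and no depth can be given, and whether 1 library sets a change could not be seen. The labels do not say that replicates were separate cultures, so the p-values may measure technical spread only.

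All log2 fold changes below are treated minus DMSO. No header states that direction, and it was inferred from the values: were every column to turn, FGR would be higher with alisertib and not lower, and every other direction would turn as well. The sign of the JB170 column rests on its correlations with the others alone, and were it to turn, each JB170 value and each difference from JB170 would change. A 95% interval beside a change comes from the standard error that the deposited change and its p-value imply, so it is approximate. Where the change was smaller than that error, the median error of genes of a like mean level was used instead. Of 9 myeloid leukaemia markers 8 had values, from a mean of 1.41 log2 CPM (read counts scaled to library size) for HOXA9 to 9.88 for the receptor kinase FLT3 in the authors' deposited table. The 5 T-lymphoid markers were not analysed here. Of 5 B-lymphoid markers 3 had values, all at a mean under 1 log2 CPM, from -0.10 for CD79A to 0.33 for CD79B in the authors' deposited table, and none was called in any comparison. Markers of further cell types with values were the keratins KRT8 at 2.63 and KRT18 at 2.80, the platelet integrin ITGA2B at 2.07 and the erythroid factor KLF1 at 1.13 log2 CPM in the authors' deposited table. The fibroblast genes COL1A1 and PDGFRB stood at 0.33 and -0.25 log2 CPM in the authors' deposited table. The keratins and ITGA2B thus lay above HOXA9, and none of these was called; their part in the results was not tested. In bulk RNA, fewer cells of a type and less RNA per cell cannot be told apart.

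FGR (ENSG00000000938) spans 23214 bases of chromosome 1, between positions 27612064 and 27635277 and read from the minus strand, by GENCODE 29 on GRCh38. Since the family shares its kinase domain, reads could in principle pass between its genes, so the sequences were compared first. The 60 coding bases shown are the stretch where FGR is most like SRC, FYN and YES1 together, and capitals mark bases that differ from FGR. They lie in the kinase domain, at coding bases 1255 to 1314 of FGR.

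FGR: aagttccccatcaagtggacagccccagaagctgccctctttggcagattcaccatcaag

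SRC: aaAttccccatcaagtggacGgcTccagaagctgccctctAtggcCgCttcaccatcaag

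FYN: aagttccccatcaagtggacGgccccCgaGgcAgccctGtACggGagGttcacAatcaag

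YES1: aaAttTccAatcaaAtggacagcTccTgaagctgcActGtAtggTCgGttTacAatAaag

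Even in this stretch SRC differed from FGR at 6 of 60 bases, FYN at 10 and YES1 at 15. Over aligned coding bases, identity with FGR ran from 63.8% for LYN to 72.3% for SRC among the family, and CSK stood at 65.0%. The longest exact run that FGR transcripts shared with any of these genes was 28 bases, with BLK, and none of the 3418 distinct 50-base words in FGR transcripts occurred in a transcript of the others. Read length is not given in the sources used here, but a read of 50 bases or more that matches FGR exactly would not match a relative exactly. No annotated gene overlapped FGR, SRC or FYN, while 1 to 4 small or non-coding genes overlapped the spans of LYN, YES1, CSK and BLK. Those within CSK and BLK lie on the opposite strand. Whether these overlaps affect the values was not tested.

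The members differed widely in level. Per kilobase of annotated exon, the authors' mean CPM came to 48.6 for CSK and 29.7 for LYN. YES1 at 5.46, SRC at 5.11, FYN at 2.99, FGR at 2.85 and BLK at 1.22 CPM per kilobase followed on the same scale. CSK and LYN thus had the highest levels of these 7 genes. The libraries behind the authors' mean are not named. If alisertib libraries are among them, the decrease of FGR there lowers its mean, which then understates its level in the other libraries. The order carries no spread, and neighbours such as YES1 and SRC or FYN and FGR cannot be ranked by it.

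With 1000 nM alisertib, FGR fell by 2.41 on the log2 scale, to a level 5.31-fold lower than with DMSO. The authors' deposited table gave FGR a log2 fold change of -2.41 with alisertib (95% interval -3.06 to -1.76) and an adjusted p of 2.22e-10. That is 18.8% of the DMSO level. When the 11291 genes whose mean reached 1 log2 CPM were ordered by their alisertib change, FGR had rank 4 from the lowest. There, 5 genes, itself included, had a change at least as large in size. Over all 13410 genes FGR had rank 24, and 54 genes, itself included, had a change at least as large. The mean of FGR was 3.31 log2 CPM, and the error its alisertib value implied was 0.33, against a running median of 0.22 for genes of that mean.

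FGR did not pass the authors' threshold in the other comparisons. With 100 nM JB170 the authors' deposited table gave it 0.18 (interval -0.26 to 0.62, p = 0.463, adjusted p = 1), above 84.8% of all genes. In the column A100 the authors' deposited table gave -0.21 (interval -0.66 to 0.24, p = 0.425, adjusted p = 0.914), and 36.0% of all genes had a change at least as large in size. In the column MK the authors' deposited table gave 0.09 (interval -0.40 to 0.59, adjusted p = 1). The 3 intervals all include 0. The lowest bound among them, -0.66 in A100, lies above the upper bound of the alisertib interval, -1.76. FGR was chosen for its decrease with alisertib, so nothing is read from that gap. The intervals in JB170, A100 and MK all use the median error of genes of a like mean. With alisertib the error of FGR was 0.33 against such a median of 0.22, so these 3 intervals may be too narrow.

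Set against each other, FGR stood at -2.41 with 1000 nM alisertib and 0.18 with 100 nM JB170 in the authors' deposited table, a difference of -2.59 (interval -3.37 to -1.80). The doses differ, so the difference is of these treatments and not of the compounds at equal dose. Alisertib minus the column A100 came to -2.20 (interval -2.99 to -1.41), and alisertib minus the column MK to -2.50 (interval -3.32 to -1.69). Taking the shared DMSO libraries off the error narrowed the interval of alisertib minus JB170 to -3.14 to -2.03. FGR was chosen for this pattern, so no p is given for it.

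**Figure D1:**
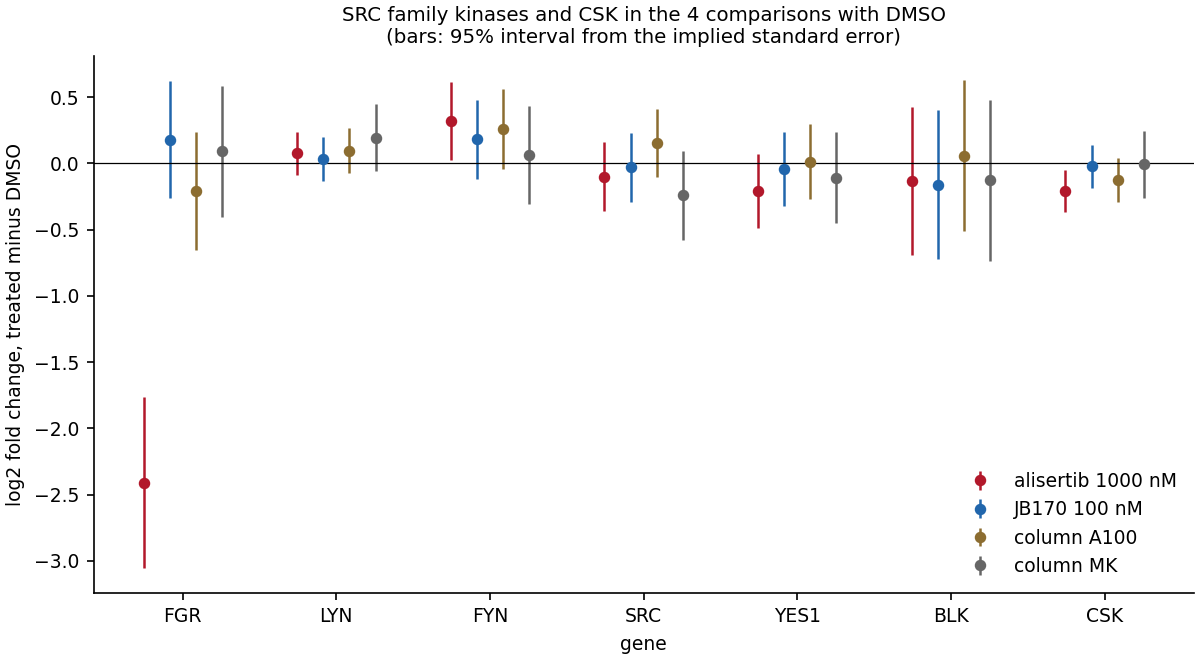
Log2 fold change (treated minus DMSO, vertical axis) of 6 SRC family genes and CSK in the 4 comparisons, by gene. Points are values of the authors' deposited table. Bars are 95% intervals from the implied standard error or, for changes smaller than it, the median error of genes of a like mean. FGR with 1000 nM alisertib stands at -2.41, and every other value lies between -0.24 and 0.32.

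LYN, also typical of myeloid cells, was not called in any comparison. LYN, which both starts and restrains signals from Fc and cytokine receptors, stood at 0.08 with alisertib (interval -0.09 to 0.24, adjusted p = 0.785) in the authors' deposited table. Its values were 0.03 with JB170, 0.10 in A100 and 0.20 in MK, all from the authors' deposited table and none called. The LYN alisertib interval uses the median error of genes of a like mean. Its lower bound lies above -1.76, the upper bound of FGR, and nothing is read from that gap either. FGR minus LYN was -2.49 with alisertib (interval -3.15 to -1.82). Because FGR was chosen for its decrease, this difference and those from the other genes below only describe the values.

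FYN, SRC and YES1, the broadly expressed kinases, also stood near 0. FYN stood above 0, at 0.32 with alisertib (interval 0.03 to 0.62, p = 0.0320, adjusted p = 0.247) in the authors' deposited table. It was positive in the other comparisons as well, at 0.18 with JB170, 0.26 in A100 and 0.06 in MK in the authors' deposited table, and none of these passed. SRC, the founding member, had -0.10 with alisertib (interval -0.36 to 0.16, adjusted p = 0.847), -0.03 with JB170, 0.15 in A100 and -0.24 in MK in the authors' deposited table. YES1 had -0.21 with alisertib (interval -0.49 to 0.07, adjusted p = 0.535), -0.04 with JB170, 0.01 in A100 and -0.11 in MK in the authors' deposited table. SRC and YES1 thus had signs that varied between comparisons, with intervals that include 0 each time. FGR minus FYN, SRC and YES1 came to -2.73, -2.31 and -2.20 with alisertib, with intervals of -3.44 to -2.02, -3.01 to -1.61 and -2.91 to -1.49.

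BLK and CSK complete the set. BLK, low in this line, had -0.13 with alisertib (interval -0.69 to 0.43, adjusted p = 0.990), -0.16 with JB170, 0.06 in A100 and -0.13 in MK in the authors' deposited table. Its wide alisertib interval comes from the median error of genes of a like mean. That interval does not reach the upper bound of FGR, from which nothing is read, as FGR was chosen for its decrease. CSK, the inhibitory kinase, stood at -0.21 with alisertib (interval -0.37 to -0.05, p = 0.0105, adjusted p = 0.128) in the authors' deposited table. In the other comparisons CSK had -0.02 with JB170, -0.12 in A100 and -0.01 in MK in the authors' deposited table. FGR minus CSK was -2.20 with alisertib (interval -2.87 to -1.53).

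With an adjusted p under 0.05 as the call, 1 of the 6 members was called lower with alisertib, FGR, and none higher. Over all genes 2.83% were called lower and 3.09% higher with alisertib. No member was called with JB170, in A100 or in MK, where 0.0298%, 1.3% and 0.47% of all genes were called. At an unadjusted p under 0.05 there were 3 members with alisertib, FGR, FYN and CSK, beside 17.6% of all genes. There was none with JB170, in A100 or in MK, beside 3.02%, 11.6% and 8.65% of all genes. Since the members were picked from these comparisons, nothing is read from the counts. The median over the 6 members was -0.15 with alisertib, against 0.01 over all genes, and that of LYN, FYN, SRC and YES1 alone was -0.01.

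For alisertib minus JB170, the differences of the relatives all lay near 0. They were 0.04 for LYN (interval -0.19 to 0.28), 0.14 for FYN (-0.28 to 0.56), -0.07 for SRC (-0.44 to 0.30), -0.17 for YES1 (-0.56 to 0.23) and -0.19 for CSK (-0.42 to 0.04). BLK came to 0.03 (-0.77 to 0.82). Every one of these intervals includes 0, which does not show that the treatments act alike on these genes. As the JB170 column was read here, all of these intervals lay within 1 log2 unit of 0. They are approximate, and those that use the median error of genes of a like mean may be too narrow. They therefore set no firm bound. With the shared DMSO libraries taken off the error, the interval of CSK (-0.35 to -0.03) no longer included 0. With the sign of the JB170 column turned, the interval of FYN (0.50, 0.08 to 0.92) excluded 0 and that of CSK (-0.23, -0.46 to -0.00075) just did. The difference of BLK was not recomputed with that sign.

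**Figure D2:**
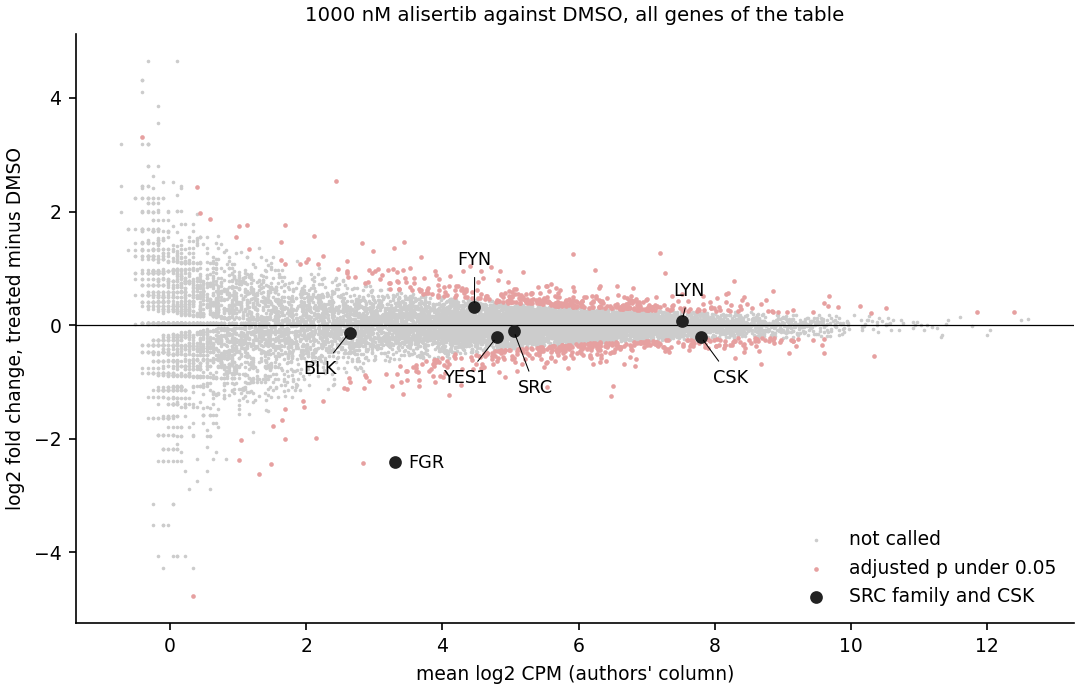
Log2 fold change with 1000 nM alisertib (treated minus DMSO, vertical axis) against the authors' mean log2 CPM (horizontal axis) for the 13410 genes; red points have an adjusted p under 0.05 and black points are 6 SRC family genes and CSK. FGR, at 3.31 log2 CPM, lies at -2.41, apart from the other 6 black points.

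The start of FGR was looked at next. RefSeq lists 2 promoter windows for FGR in GRCh38.p14, each from 250 bases before an annotated start to 50 after it, and both are shown because FGR was the member called. No data on binding or methylation go with them, and which start MV4-11 cells use was not measured. Capitals mark matches, on either strand, to 7 short motifs that were searched: the ETS family motif AGGAAGT, the RUNX motif TGTGGT, the AP-1 motif TGANTCA, the box CCAAT, the E-box CACGTG, the box TATAAA and the GC box GGGCGG. No match overlapped another.

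FGR first window, chr1:27635136-27635435, minus strand: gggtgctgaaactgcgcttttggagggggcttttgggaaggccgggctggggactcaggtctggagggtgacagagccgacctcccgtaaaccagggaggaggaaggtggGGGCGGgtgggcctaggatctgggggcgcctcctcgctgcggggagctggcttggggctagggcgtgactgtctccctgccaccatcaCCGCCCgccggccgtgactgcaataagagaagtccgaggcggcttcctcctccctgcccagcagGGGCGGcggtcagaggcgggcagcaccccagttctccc

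FGR second window, chr1:27626548-27626847, minus strand: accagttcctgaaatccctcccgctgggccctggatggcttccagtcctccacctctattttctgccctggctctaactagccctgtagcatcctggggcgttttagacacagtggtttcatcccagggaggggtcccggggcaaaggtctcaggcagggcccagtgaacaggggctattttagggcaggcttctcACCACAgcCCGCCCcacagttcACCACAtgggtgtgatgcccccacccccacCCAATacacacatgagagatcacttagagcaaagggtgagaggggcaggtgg

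The first window, 68.7% G and C, held 3 GC boxes and none of the other motifs. The second, 59.0% G and C, held 2 RUNX motifs, 1 GC box and 1 CCAAT. Among the 35116 promoter windows of the table, 45.0% held a GC box, 34.6% CCAAT and 13.1% the RUNX motif. The motifs absent from both FGR windows were in 8.24% (ETS), 7.71% (AP-1), 7.26% (E-box) and 11.5% (TATAAA) of all windows. These are matches of letters, not sites shown to be bound.

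The genes around FGR were described next. Of 16 measured genes that start within 500 kb of the start of FGR, 1 was called lower with alisertib, none higher, and none was called in the other 3 comparisons. With 2.83% of all genes called lower and 3.09% higher, nothing is read from 1 call in 16. The nearest gene on each side was not called: AHDC1, a DNA-binding protein gene 30.8 kb away, stood at 0.29 with alisertib (adjusted p = 0.156) and IFI6, an interferon-induced gene 36.9 kb away on the other side, at 0.06 (adjusted p = 0.999) in the authors' deposited table. The called gene was GPR3, a receptor that raises cyclic AMP without a ligand, 243 kb from FGR. GPR3 had -1.78 with alisertib (interval -2.82 to -0.73, adjusted p = 0.0230), -0.52 with JB170, -0.47 in A100 and -0.54 in MK in the authors' deposited table. Its mean was 1.51 log2 CPM, so it had few reads. WASF2 and AHDC1 lie between GPR3 and FGR, and WASF2 stood at 0.19 (adjusted p = 0.165) with alisertib in the authors' deposited table. The alisertib intervals of WASF2 (0.04 to 0.35) and AHDC1 (0.06 to 0.53) lay above 0, though neither gene was called. The median over the 16 genes was 0.04 with alisertib, against 0.01 over all genes.

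**Figure D3:**
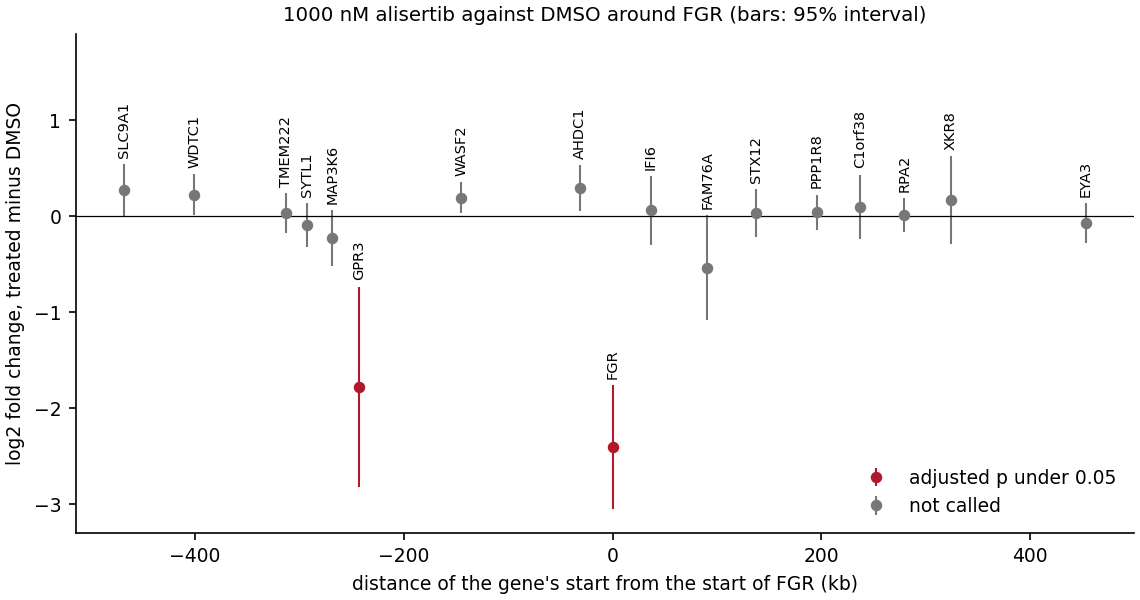
Log2 fold change with 1000 nM alisertib (treated minus DMSO, vertical axis) of FGR and the 16 measured genes within 500 kb, against the distance of each start from that of FGR in kb; bars are 95% intervals and red marks an adjusted p under 0.05. FGR at -2.41 and GPR3 at -1.78 are the genes in red, with WASF2 at 0.19 and AHDC1 at 0.29 between them.

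Few genes resembled FGR over the 4 comparisons. Likeness was taken as the Euclidean distance between the 4 log2 fold changes of a gene and those of FGR, among the same 11291 genes, where the median distance was 2.44. The 4 comparisons share DMSO libraries, so likeness here describes the values only. The nearest were IL31RA, a cytokine receptor subunit (distance 0.46), CD38, a surface enzyme that cleaves NAD (0.76), and HIST1H4C, a histone H4 gene (0.79), whose transcripts mostly lack the poly(A) tail that the libraries selected. L1CAM, an adhesion molecule (0.99), C20orf123 (1.10) and CLDND2 (1.12) completed the 6. With alisertib they stood at -2.45 for IL31RA, -1.68 for CD38, -2.01 for HIST1H4C, -1.45 for L1CAM, -2.43 for C20orf123 and -1.50 for CLDND2 in the authors' deposited table. The first 5 were called, with adjusted p from 8.50e-09 for C20orf123 to 0.0427 for CD38 in the authors' deposited table, and CLDND2 was not (adjusted p = 0.148). Their means, not scaled to length, ran from 1.41 to 2.84 log2 CPM, so all 6 had fewer reads than FGR at 3.31. MYBPH, seventh at a distance of 1.16 and named after its values were seen, stood at -1.25 with alisertib in the authors' deposited table at a mean of 6.48 log2 CPM. GPR3, the called neighbour of FGR, had place 9, also at a distance of 1.16. The nearest of the other members and BLK was at a distance of 2.21, near the median of all genes. FGR was chosen for its alisertib change of -2.41, and a gene near 0 in every comparison lies about that far from it. The small number of like genes and the distance of the members thus follow from the choice and add nothing to the values above.

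**Figure D4:**
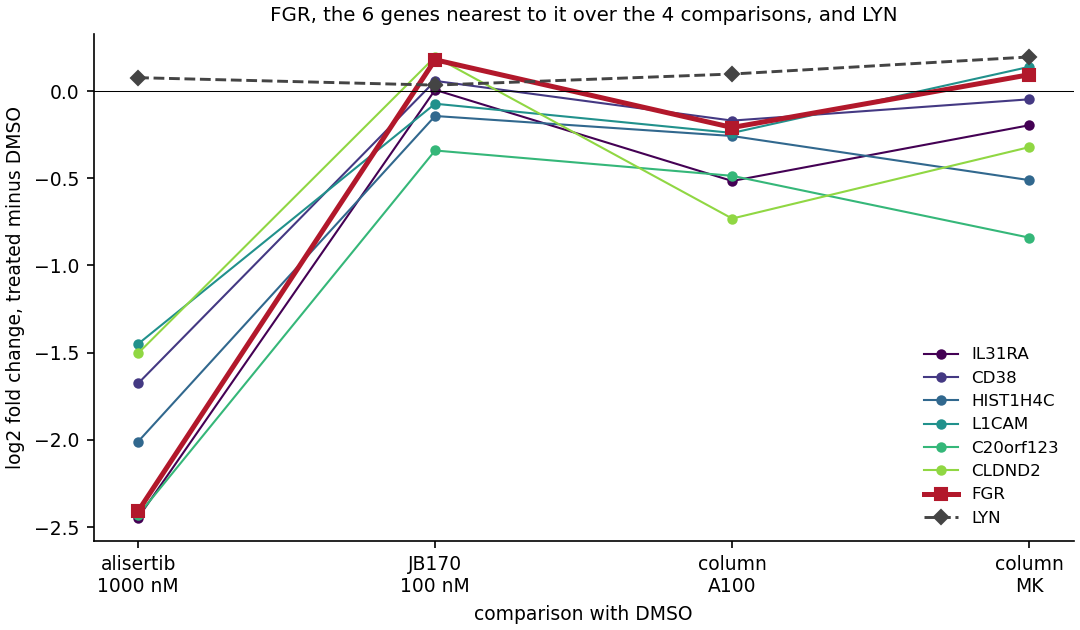
Log2 fold change (treated minus DMSO, vertical axis) of FGR, the 6 genes nearest to it and LYN in the 4 comparisons (horizontal axis); lines join the values of a gene and have no meaning between comparisons. FGR and the 6 genes lie between -2.45 and -1.45 with 1000 nM alisertib, and LYN lies at 0.08.

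Genes that act on or with the family were described from 4 lists, where called again means an adjusted p under 0.05. Among 22 measured regulators of 27 listed, which include CSK, 5 rose and 2 fell with alisertib and 15 were not past the threshold, beside 3.09% of all genes higher and 2.83% lower. PTPRC, which encodes CD45, the phosphatase that frees the inhibitory tail, rose by 0.37 (adjusted p = 0.00273; the authors' deposited table). PAG1, the membrane adaptor that recruits CSK, rose by 0.36 (adjusted p = 0.00180), and the phosphatase PTPRE rose by 0.41 (adjusted p = 0.00467), both in the authors' deposited table. The ubiquitin ligase CBLB rose by 0.64 (adjusted p = 0.0353) and the adaptor SLA2 by 1.07 (adjusted p = 0.0348), both in the authors' deposited table. Neither had an adjusted p under 0.01. The mean of SLA2 was 1.69 log2 CPM, so it had few reads, and its interval was 0.41 to 1.74. MATK, the relative of CSK with the same inhibitory activity, fell by 0.36 (adjusted p = 0.00256), and PTPN6, the phosphatase SHP-1, fell by 0.29 (adjusted p = 0.00843; the authors' deposited table). In A100, CBL rose by 0.40 (adjusted p = 0.00713, authors' deposited table), the only call of the list there; none was called in MK or with JB170. The list's median with alisertib was 0.08, against 0.01 over all genes.

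Of 16 measured further cytoplasmic tyrosine kinases of 21 listed, 3 rose and 1 fell with alisertib, where 3.09% of all genes were called higher and 2.83% lower. FES rose by 0.51 (adjusted p = 2.08e-05), TEC by 0.61 (adjusted p = 0.00372) and JAK1 by 0.29 (adjusted p = 0.0320; the authors' deposited table). BMX, of the TEC family, fell by 0.42 (adjusted p = 0.00396; the authors' deposited table) and had the lowest change of the list. SYK, which acts next to the SRC family below Fc receptors, stood at -0.12 and BTK at 0.05 with alisertib in the authors' deposited table, neither called. None of the list was called in A100, in MK or with JB170, and its median with alisertib was 0.13.

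Of 33 measured myeloid receptors and adaptors of 41 listed, 4 rose and 3 fell with alisertib, against 3.09% called higher and 2.83% called lower over all genes. CSF1R, the macrophage growth factor receptor, rose by 0.69 (adjusted p = 9.63e-08), CD36, a scavenger receptor, by 0.48 (adjusted p = 7.55e-05) and CD44, the hyaluronan receptor, by 0.28 (adjusted p = 0.0364; the authors' deposited table). TYROBP, the adaptor whose tyrosine motif SRC family kinases phosphorylate, rose by 0.51 (adjusted p = 0.00316), while TREM2, a receptor that signals through TYROBP, fell by 0.85 (adjusted p = 0.00101; the authors' deposited table). ITGB2, the beta chain of the leukocyte integrins that signal through SRC family kinases, fell by 0.37 (adjusted p = 0.000520), and its partner ITGAL fell by 0.26 (adjusted p = 0.0158; the authors' deposited table). CSF1R also rose in A100, by 0.46 (adjusted p = 0.0121, authors' deposited table), the only call of this list outside alisertib. The median with alisertib was 0.07.

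Of 36 measured substrates and downstream adaptors of 40 listed, 1 rose and 1 fell with alisertib and 34 were not past the threshold. Over all genes 3.09% were called higher and 2.83% lower, so the count is near the background. The 40 listed are symbols, and they hold FYB also as FYB1, which had no values under that symbol. FYB, an adaptor between tyrosine kinases and integrins, rose by 0.49 (adjusted p = 0.000556), and LAT2, a membrane adaptor of Fc receptor signalling, fell by 0.45 (adjusted p = 1.72e-05; the authors' deposited table). LAT2 also fell in A100, by 0.33 (adjusted p = 0.0188, authors' deposited table); nothing in the list was called in MK or with JB170. HCLS1, a haematopoietic substrate of the family, stood at 0.14 and VAV1 at 0.06 with alisertib in the authors' deposited table, neither called. The list's median with alisertib was 0.06, and no change in the 4 lists that was called reached the size of that of FGR.

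**Figure D5:**
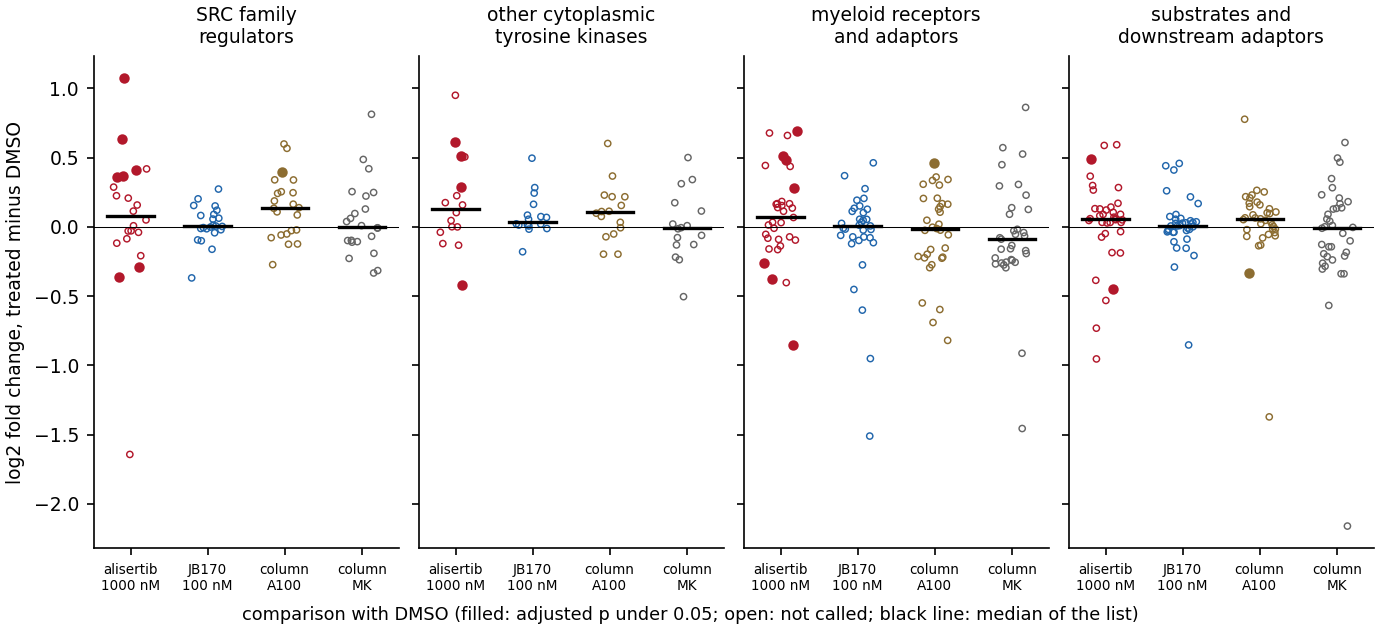
Log2 fold change (treated minus DMSO, vertical axis) of each measured gene of 4 lists in the 4 comparisons; filled points have an adjusted p under 0.05, open points do not, and black lines are medians. With 1000 nM alisertib the filled points lie between -0.85 and 1.07.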

How the data were processed

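Poly(A)-selected, directional RNA-seq libraries were made from 9 samples in 3 groups, per the labels' protocols. The submitters' processing notes name the tools TopHat2 2.1.1, Bowtie2 2.3.2 and FastQC and the build hg19. The sources used here do not give how reads were counted, normalized, filtered and tested. The authors' deposited table gives log2 fold changes, p-values and adjusted p-values for 4 comparisons and 1 column of mean log2 CPM. Its 13485 entries include 80 that share 5 identifiers; keeping 1 per identifier left 13410 genes. The authors' adjusted p-values were used as deposited; in A100, MK and JB170 the smallest p-value listed was multiplied by 16812, which implies that many tests, more than the genes listed. In A1000 the factor was 8406, that number divided by 2.

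Direction was inferred. As deposited, the JB170 column correlated with the others at -0.45 to -0.53, and they with each other at 0.49 to 0.53. Standard errors grow as reads fall. Genes past 1 in absolute change, with means between 0 and 4 log2 CPM, had a log2 error that was larger, positive minus negative, by 0.32 in A1000, 0.29 in A100 and 0.30 in MK, and by 0.03 in JB170. All columns but JB170 were multiplied by -1. This reading assumes that the deposited mean is set mostly by libraries outside the treatment compared, which no header states. The sign of JB170 rests on the correlations.

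The standard error was the change divided by the z of its p-value where absolute z was at least 1. For other genes it was the median of genes with a like mean log2 CPM, in 60 bins. The step was run on simulated data whose p-values followed the same formula. That checks the code and not how well the step fits the authors' test, which is not known. Differences kept the shared DMSO error in. The files turned out to hold comparisons only, so no count or limma fit was made. Members, lists and rules were chosen with earlier results of these data known. Named genes were the members and BLK, up to 8 called genes of each list, the nearest and the called neighbours of FGR and the 6 genes most like FGR. WASF2, SYK, BTK, HCLS1, VAV1, MYBPH and the markers were named outside this rule, after their values were seen. A gene that the rule names is not reported here. Sequences and positions came from GENCODE 29 and RefSeq (GRCh38), matched by identifier and symbol. Python 3.11.15, scipy 1.17.1, pandas 2.3.3 and Biopython 1.88 were used.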

Additional observations from a re-analysis of the deposited data

How the results depend on the processing

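Of 102 alternative values, 94 stayed within the set limits of their main value, 8 moved and none turned. Many of the 94 could not move, since a count of 0 cannot rise under a stricter threshold or a narrower window. The tally therefore does not measure how robust the results are. FGR remained the 1 member called with alisertib at an adjusted p under 0.01, which its deposited value of 2.22e-10 fixed in advance. Read in the direction of the other columns, the JB170 column moved the difference alisertib minus JB170 of FYN to 0.50 (interval 0.08 to 0.92), and that of CSK was then -0.23 (-0.46 to -0.00075), which excludes 0. The number of called genes near FGR with alisertib was 0 within 200 kb and 2 within 1000 kb (GPR3 and SNHG12), and in A100 it was 1 within 1000 kb (SNHG12). At an adjusted p under 0.01, 3 regulators were called higher with alisertib, and in A100 there were 0 receptors called higher and 0 substrates called lower. With genes of at least 1 log2 CPM alone, 2 receptors were called higher in A100, CSF1R and CD44. The cause of these moves was not tested beyond the change of threshold, window or direction itself. No paired analysis was possible because the table holds comparisons and no values per library. For the same reason leaving out replicates, DESeq2 and another normalization were not run, and the depth is unknown. JB170 called few genes in the whole table, so a small change of a member there may have been missed.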
